A study of Mus musculus with 6 samples.

Results

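Pseudogenes are copies of genes that no longer encode the full product of the gene they came from, here called the parent. Processed pseudogenes arose when a spliced mRNA was copied back into the genome, so they lack introns and can match the parent mRNA almost base for base, whereas unprocessed pseudogenes arose from duplicated or decayed genes and keep an exon structure. Genes that are strongly expressed in the germ line, such as those of ribosomal proteins and glycolytic enzymes, have many processed copies, and hypoxia-inducible factor 1α (HIF-1α) is known as a transcriptional activator of most glycolytic genes. A fragment that matches parent and copy equally well cannot be placed by its sequence alone. The sources used here do not say how the counting treated such fragments.

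The members described here were the rows of the deposited ileum table whose biotype contained the word pseudogene, without immunoglobulin and T cell receptor segments and without Gm7336 and Gm4735. There were 72 of them among 923 listed genes (7.80%), of which 49 were annotated as processed, 7 as transcribed processed, 10 as unprocessed, 5 as transcribed unprocessed and 1 as polymorphic. All 72 had the same coordinates in GENCODE M21 on GRCm38, where 12505 pseudogenes are annotated, so 0.576% of the annotated pseudogenes were listed. The table itself holds the genes with an unadjusted p under 0.05 in the authors' comparison of the same mice, so each member was already selected for a difference between the groups, and counts of higher and lower members describe that selection.

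The comparison asked which ileal transcripts differed between 3 Hif1α LSL/LSL;VilERcre mice and 3 Hif1α LSL/LSL littermates. By the labels, 2 mice of each group were male and 1 was female, whereas the paper describes the sequenced mice as male. Both groups carried the conditional HIF-1α allele on a C57BL/6 background and received tamoxifen. The first group also carried a Cre recombinase under the villin promoter, which is active in the intestinal epithelium, while the samples were labelled as ileum with no cell fraction named. The sources used here do not state the age and diet of the sequenced mice. In bulk tissue, fewer cells of a type and less RNA per cell cannot be told apart.

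Depth was close between the libraries, with implied totals of 18918341 to 24905343 fragments, and the members together took 0.0326% to 0.0397% of them. The row of Hif1a had 535 to 741.3 normalized counts in Hif1α LSL/LSL;VilERcre mice, against 740.5 to 1185 in Hif1α LSL/LSL mice, and whether it counts transcript of the transgene was not tested. Of the cell type markers, 1 of 6 for enterocytes was listed, Fabp6, with a higher mean and overlapping groups. Lower means were listed for Lgr5 (1 of 3 stem cell markers), Pou2f3 (1 of 3 for tuft cells) and Dcn (1 of 3 for fibroblasts). Ms4a1, among 5 markers of B and plasma cells, was lower too. No marker of Paneth, goblet, enteroendocrine, smooth muscle, T, myeloid or endothelial cells was listed. Ms4a1 had 13.1 ± 6.08 normalized counts in Hif1α LSL/LSL;VilERcre mice and 55.2 ± 38.3 in Hif1α LSL/LSL mice (SD, n = 3 each), and the part of these cells in the pseudogene results was not tested.

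How closely members resembled their parents is shown first, because it bears on what their counts hold. In the following stretches of 90 bases, taken from the coding part of the match in GENCODE M21 on GRCm38, capitals mark the bases at which pseudogene and parent differ. Gm5559, a copy of the glyceraldehyde-3-phosphate dehydrogenase gene Gapdh, is shown at chr5:95862053-95862142 on the plus strand, and differed from Gapdh at 1 of 1002 aligned bases.
Gm5559: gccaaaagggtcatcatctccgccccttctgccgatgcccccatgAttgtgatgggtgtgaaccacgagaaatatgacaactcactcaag
Gapdh: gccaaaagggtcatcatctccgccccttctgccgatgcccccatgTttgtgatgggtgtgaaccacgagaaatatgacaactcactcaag
Pgk1-rs7, a copy of the phosphoglycerate kinase gene Pgk1, is shown at chr12:10900151-10900240 on the minus strand. It had no difference from Pgk1 over its 1255 bases, so the line below is also the sequence of the parent.
Pgk1-rs7: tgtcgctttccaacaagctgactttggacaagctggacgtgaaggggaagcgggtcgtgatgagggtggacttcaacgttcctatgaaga
Ak3l2-ps, a copy of the mitochondrial adenylate kinase gene Ak4, is shown at chr2:72634175-72634264 on the plus strand, and differed from Ak4 at 3 of 672 bases.
Ak3l2-ps: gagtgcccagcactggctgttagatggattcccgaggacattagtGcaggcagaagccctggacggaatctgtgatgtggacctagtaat
Ak4: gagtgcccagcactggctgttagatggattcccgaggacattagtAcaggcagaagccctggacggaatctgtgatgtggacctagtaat
Tpi-rs11, a partial copy of the triosephosphate isomerase gene Tpi1, is shown at chr6:127183629-127183718 on the minus strand, and differed from Tpi1 at 7 of 310 bases.
Tpi-rs11: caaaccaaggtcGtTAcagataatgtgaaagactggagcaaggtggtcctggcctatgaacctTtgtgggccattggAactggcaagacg
Tpi1: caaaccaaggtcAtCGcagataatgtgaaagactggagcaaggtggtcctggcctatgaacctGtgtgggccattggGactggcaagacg
Gm45063, a decayed copy of the cyclin-dependent kinase gene Cdk4, is shown at chr6:132462767-132462856 on the minus strand as a contrast, since it differed from Cdk4 at 79 of 463 bases aligned without gaps.
Gm45063: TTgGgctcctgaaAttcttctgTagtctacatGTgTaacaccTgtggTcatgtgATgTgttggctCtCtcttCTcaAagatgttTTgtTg
Cdk4: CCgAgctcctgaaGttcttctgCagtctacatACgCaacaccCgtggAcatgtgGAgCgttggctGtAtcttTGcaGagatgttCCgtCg

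A parent could be given to 57 of the 72 members, 14 by the symbol and 43 by the best match to a protein-coding transcript (at least 80% identity over at least 200 bases), and these were 51 different genes. At 90% identity or more, 48 kept a parent. The other 15 had no parent by this rule, 5 of them because the match was to the opposite strand of a gene and 8 because it was too short or too weak. Exact sequence sharing was common. Of the 71 members long enough to test, 38 held at least 1 window of 150 bases, the read length, that also occurs in transcripts of another gene, and in 5 every window did. Over their whole length Pgk1-rs7, Pgam1-ps2, Tpt1-ps3 and Trmt112-ps2 were identical to their parents. Values of the 38 members are therefore uncertain as measures of the pseudogene locus.

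The mean normalized count was higher in Hif1α LSL/LSL;VilERcre mice for 44 members and lower for 28, against 495 and 428 of all listed genes (53.6% higher). The libraries of the groups did not overlap for 36 higher and 22 lower members, while the remaining 14 overlapped. Groups without overlap made up 38.6% (higher) and 33.5% (lower) of the listed genes, and 72% in all. With 3 libraries against 3, an exact permutation test of a single gene cannot go below p = 0.1. In the heat map of all members by library, both directions occur in each of the blocks of ribosomal, other and unknown parents.

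**Figure D1:**
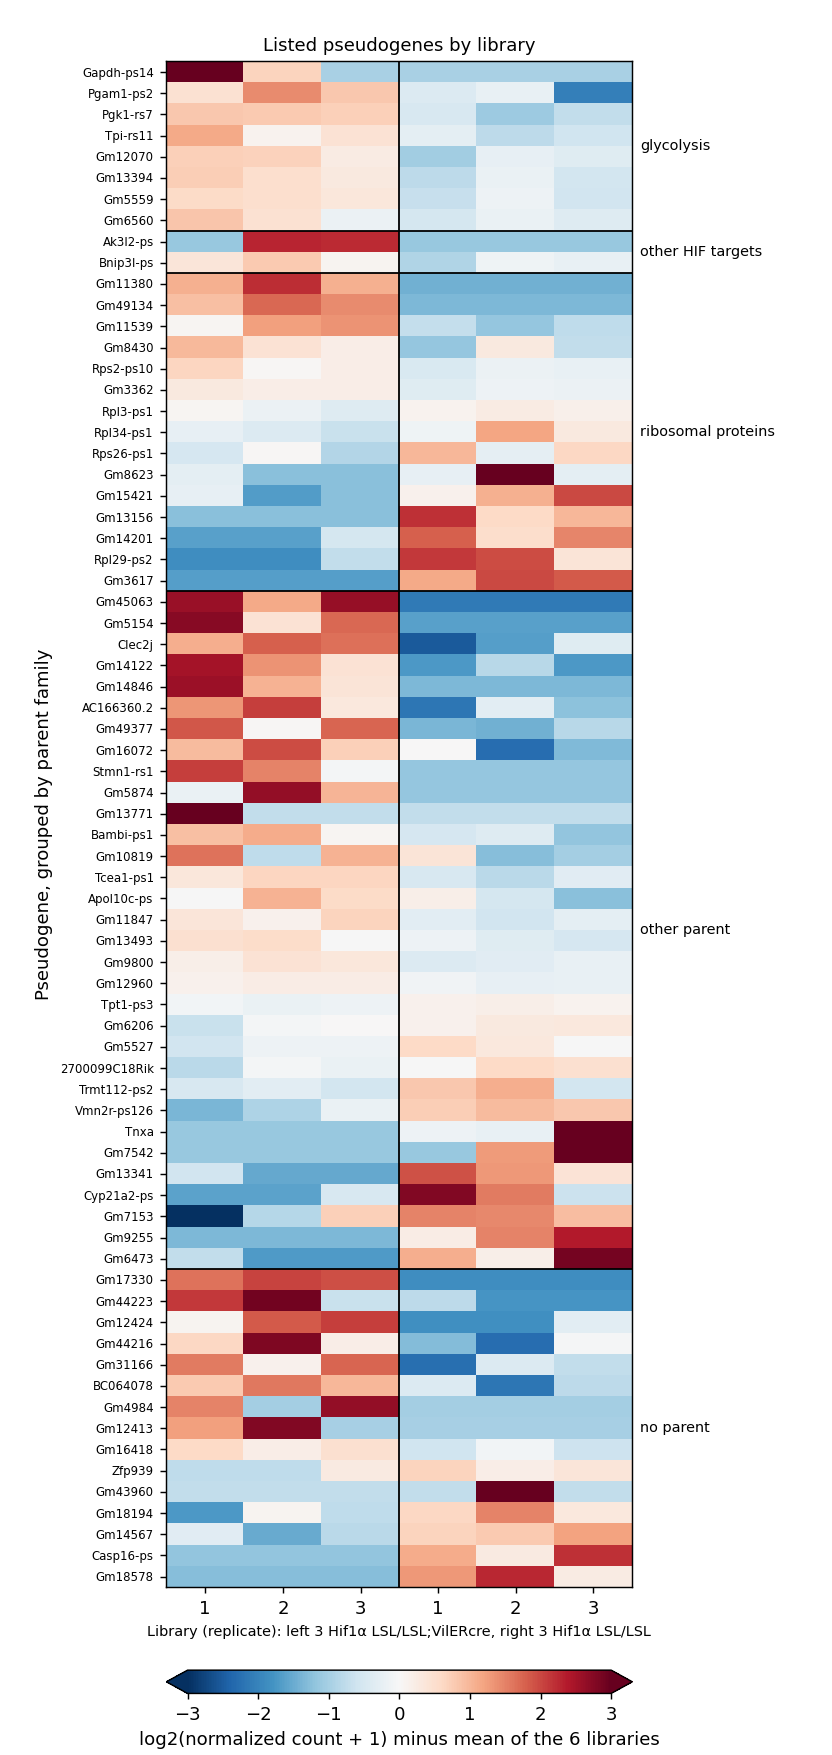
All 72 pseudogenes (rows, grouped by parent family) in the 6 libraries (columns, 3 Hif1α LSL/LSL;VilERcre mice on the left and 3 Hif1α LSL/LSL mice on the right). Colour gives log2(normalized count + 1) minus the mean of the 6 libraries, and all 8 glycolytic and both other HIF target copies have a higher mean on the left.

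A mean of at least 5 normalized counts, the minimum for the fit, was reached by 50 members, 33 higher and 17 lower, and the other 22 stayed below it. The median fitted log2 fold change of the 50 was 0.84, against 0.34 over the 767 listed genes in the fit. Setting members at 0 in a whole group to their bound left the median of the 50 at 0.84. It could not move, since each of these members stayed on its side of the median. In edgeR's quasi-likelihood test with Benjamini-Hochberg adjustment over the 19204 genes of the authors' test, none of the 50 had an adjusted p under 0.05 (0 calls, lowest adjusted p = 0.42), beside 22 of 767 listed genes (2.87%, or 2.74% higher and 0.13% lower). At an unadjusted p under 0.05 there were 41 of 50 members, where 82.9% of the listed genes passed. DESeq2 called 5 members beside 9.52% of the listed genes, and limma called 0 beside 21 of the 767. The DESeq2 calls were BC064078, Gm45063, Clec2j and Gm9800, which were higher, and Vmn2r-ps126, which was lower. In what follows higher and lower describe the values of these mice.

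Copies of glycolytic enzyme genes had higher means in Hif1α LSL/LSL;VilERcre mice in 8 of 8 cases, and the groups did not overlap in 7, beside 72% of all listed genes. The 7 in the fit had a median log2 fold change of 1.09. Gapdh, whose enzyme oxidises glyceraldehyde 3-phosphate, was the parent of 4 of them. Gm5559 had 261, 247 and 220 normalized counts in Hif1α LSL/LSL;VilERcre mice, against 107, 156 and 118 in Hif1α LSL/LSL mice. Every value of the first group was above every value of the second, and the fitted log2 fold change was 0.93 ± 0.24 (SE; adjusted p = 0.70, edgeR). Gm12070 had 128, 127 and 92.1 normalized counts in Hif1α LSL/LSL;VilERcre mice, against 37.5, 65.0 and 60.2 in Hif1α LSL/LSL mice. Gm13394 had 86.0, 73.4 and 62.9 in Hif1α LSL/LSL;VilERcre mice, against 29.6, 44.8 and 34.8 in Hif1α LSL/LSL mice. Both were about as far apart as Gm5559, with log2 fold changes of 1.09 ± 0.35 and 1.02 ± 0.38 (SE), and all 3 genes shared over 80% of their 150-base windows with transcripts of other genes. Gapdh-ps14, an older copy with 35 mismatches to Gapdh and no shared window, had 16.8, 2.13 and 0 in Hif1α LSL/LSL;VilERcre mice and was at 0 in all Hif1α LSL/LSL mice. It was seen mainly in 1 library, which held 90% of its counts.

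The other glycolytic copies came from later steps of the pathway and from triosephosphate isomerase. Pgk1-rs7 had 61.7, 60.7 and 58.3 normalized counts in Hif1α LSL/LSL;VilERcre mice, against 24.7, 15.8 and 20.7 in Hif1α LSL/LSL mice. Its libraries agreed closely within the first group, and the log2 fold change was 1.56 ± 0.43 (SE; adjusted p = 0.83, edgeR). Pgam1-ps2, identical to the phosphoglycerate mutase mRNA of Pgam1, had 31.8, 62.8 and 40.8 in Hif1α LSL/LSL;VilERcre mice, against 16.8, 19.3 and 4.70 in Hif1α LSL/LSL mice. Tpi-rs11 had 136, 66.0 and 82.8 in Hif1α LSL/LSL;VilERcre mice, against 50.3, 35.1 and 40.5 in Hif1α LSL/LSL mice. It held no window of 150 bases in common with another transcript, and its groups did not overlap. Gm6560, a copy of the pyruvate kinase gene Pkm at 98.4% identity, had 152, 118 and 75.8 in Hif1α LSL/LSL;VilERcre mice, against 59.2, 74.7 and 65.9 in Hif1α LSL/LSL mice. Its groups were nearly in contact, at 75.8 and 74.7.

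**Figure D2:**
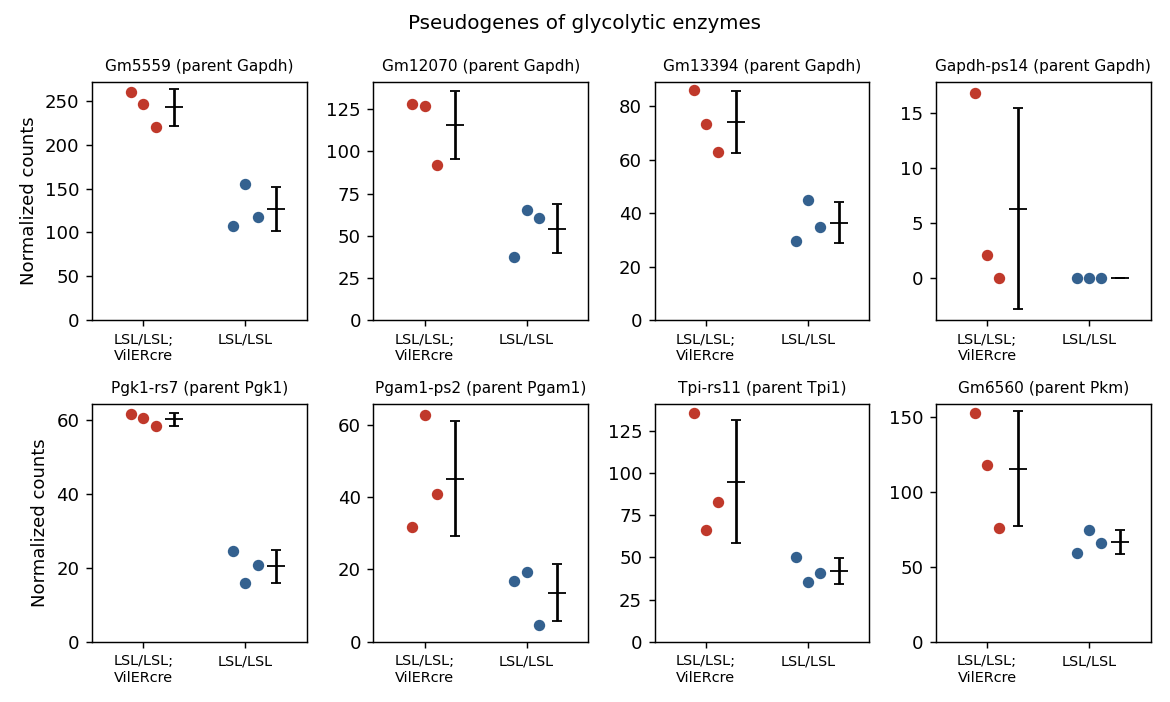
Normalized counts of the 8 copies of glycolytic genes, 1 panel each with its own axis. Points are single mice, with Hif1α LSL/LSL;VilERcre mice on the left of each panel and Hif1α LSL/LSL mice on the right, and bars give the mean ± SD (n = 3). The groups overlap only for Gapdh-ps14, which was at 0 in 1 Hif1α LSL/LSL;VilERcre mouse.

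The parents of all 8 were listed as well, each with non-overlapping groups and a higher mean in Hif1α LSL/LSL;VilERcre mice. Pgk1 had a log2 fold change of 1.60 ± 0.14 (SE; adjusted p = 0.0022, edgeR), close to the 1.56 of Pgk1-rs7. Pgam1 had 1.25 ± 0.13 (SE; adjusted p = 0.0059, edgeR) and Pkm 0.98 ± 0.14 (SE; adjusted p = 0.036, edgeR), while Tpi1 reached 0.93 ± 0.15 (SE) with an adjusted p of 0.084. Those parents rose where they passed the test, and their copies did not pass it. In normalized counts Pgk1-rs7 was 0.51%, 0.47% and 0.48% of Pgk1 in Hif1α LSL/LSL;VilERcre mice, and 0.65%, 0.35% and 0.52% in Hif1α LSL/LSL mice. The share was of the same size in both groups.

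Gapdh differed from this in its level. Per length, Gapdh averaged 10.5 FPKM in Hif1α LSL/LSL;VilERcre mice and 2.99 FPKM in Hif1α LSL/LSL mice, and Gm5559 averaged 10.9 FPKM in Hif1α LSL/LSL;VilERcre mice and 5.76 FPKM in Hif1α LSL/LSL mice. In FPKM, which divides by gene length, the pseudogene was thus listed at or above its parent. In normalized counts it was below Gapdh in every library. Gm5559 had 17.5%, 24.1% and 56.9% of the counts of Gapdh in Hif1α LSL/LSL;VilERcre mice, and 52.7%, 60.4% and 33.2% in Hif1α LSL/LSL mice. Pkm averaged 144 FPKM in Hif1α LSL/LSL;VilERcre mice and 73.7 FPKM in Hif1α LSL/LSL mice. Gapdh had 1489, 1023 and 387 normalized counts in Hif1α LSL/LSL;VilERcre mice, against 204, 257 and 354 in Hif1α LSL/LSL mice. The 4 copies together made up 24.8%, 30.5% and 49.2% of the counts of Gapdh and copies in Hif1α LSL/LSL;VilERcre mice, and 46.1%, 50.8% and 37.5% in Hif1α LSL/LSL mice. Gapdh spread more between the mice of the first group than Gm5559 did, and the part of shared fragments in these values was not tested.

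**Figure D3:**
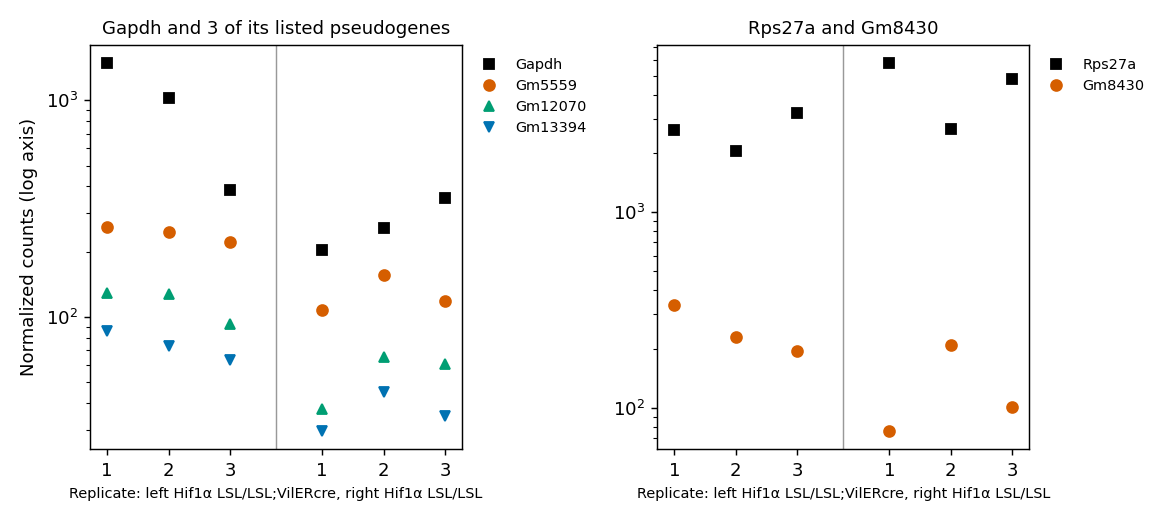
Normalized counts (log axis) per mouse of Gapdh with 3 of its copies (left panel) and of Rps27a with its copy Gm8430 (right panel), with Hif1α LSL/LSL;VilERcre mice left of the line and Hif1α LSL/LSL mice right of it. Gapdh runs from 204 to 1489 over the 6 mice and Gm5559 from 107 to 261, while Gm8430 is lowest where Rps27a is highest.

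Copies of 2 other HIF-1 target genes were listed, both with higher means in Hif1α LSL/LSL;VilERcre mice. Bnip3l-ps, a transcribed copy of the mitophagy receptor gene Bnip3l, had 143, 194 and 119 normalized counts in Hif1α LSL/LSL;VilERcre mice, against 59.2, 102 and 96.0 in Hif1α LSL/LSL mice. Its groups did not overlap, and its log2 fold change of 0.82 ± 0.33 (SE) lay near the 0.98 ± 0.13 of Bnip3l, which rose (adjusted p = 0.021, edgeR). Ak3l2-ps, shown above beside Ak4, had 0, 9.58 and 9.33 in Hif1α LSL/LSL;VilERcre mice and was at 0 in the 3 Hif1α LSL/LSL mice. Ak4 rose with a log2 fold change of 2.60 ± 0.32 (SE; adjusted p = 0.015, edgeR), and Ak3l2-ps was under 4% of its counts in every library.

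Copies of ribosomal protein genes formed the largest family with 15 members and went both ways, with 6 higher and 9 lower. Of these, 5 higher and 8 lower had groups without overlap, beside 38.6% higher and 33.5% lower of all listed genes. The 9 in the fit had a median log2 fold change of -0.32. The highest by mean FPKM was Rpl34-ps1, with 638, 566 and 473 normalized counts in Hif1α LSL/LSL;VilERcre mice, against 686, 1713 and 921 in Hif1α LSL/LSL mice. The second Hif1α LSL/LSL mouse stood apart, and without it the log2 fold change of -0.99 ± 0.29 (SE) shrank to -0.52 ± 0.20. Rpl3-ps1 had 1036, 873 and 760 in Hif1α LSL/LSL;VilERcre mice, against 1061, 1170 and 1097 in Hif1α LSL/LSL mice. The difference was small, with a log2 fold change of -0.32 ± 0.15 (SE). Gm3362, a copy of Rpl23a, went the other way with 544, 514 and 512 in Hif1α LSL/LSL;VilERcre mice, against 348, 405 and 393 in Hif1α LSL/LSL mice. Copies of the same parent did not move together in each case. Of the copies of Rpl17, Gm11380 had 4.68, 11.7 and 4.66 in Hif1α LSL/LSL;VilERcre mice and 0 in all Hif1α LSL/LSL mice, and Gm3617 had 0 in all Hif1α LSL/LSL;VilERcre mice and 5.92, 11.4 and 10.4 in Hif1α LSL/LSL mice. Neither held a window of 150 bases in common with another transcript.

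The family also held both members that went against a listed parent. Of the 14 members whose parent was listed (11 parents), 12 had the direction of the parent. Gm8430, which matches the ubiquitin and ribosomal fusion gene Rps27a over 471 bases at 99.8% identity, had 334, 230 and 195 normalized counts in Hif1α LSL/LSL;VilERcre mice, against 75.9, 209 and 101 in Hif1α LSL/LSL mice. Rps27a had 2635, 2062 and 3210 in Hif1α LSL/LSL;VilERcre mice, against 5798, 2680 and 4789 in Hif1α LSL/LSL mice. The groups overlapped for both genes, and the second Hif1α LSL/LSL mouse had a high Gm8430 and a low Rps27a, like the mice of the other group. Gm8430 shared 78% of its 150-base windows with other transcripts. Gm15421, a copy of Rpl22l1 within the gene Orc5, had 10.3, 3.19 and 4.66 in Hif1α LSL/LSL;VilERcre mice, against 13.8, 27.2 and 51.8 in Hif1α LSL/LSL mice. Rpl22l1 had a higher mean in Hif1α LSL/LSL;VilERcre mice, 623 ± 61.0, against 464 ± 95.3 in Hif1α LSL/LSL mice (SD, n = 3 each).

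The remaining ribosomal copies in the fit were Rps2-ps10, with a log2 fold change of 0.60 ± 0.25 (SE), Gm11539 (Rpl18) with 2.09 ± 0.80, Rps26-ps1 with -0.94 ± 0.39 and Rpl29-ps2 with -4.49 ± 1.33. Rpl29-ps2 was a low gene, with 0, 0 and 1.17 normalized counts in Hif1α LSL/LSL;VilERcre mice, against 14.8, 13.2 and 3.76 in Hif1α LSL/LSL mice. Below the minimum were Gm49134 (Rpl7a), at 0 in all Hif1α LSL/LSL mice and at least 6.08-fold higher in Hif1α LSL/LSL;VilERcre mice, and Gm13156 (Rpl35a), at 0 in all Hif1α LSL/LSL;VilERcre mice and at least 5.18-fold lower there. Such bounds set the group at 0 to 3 counts over its libraries. They take the mean of the other group as observed, without its error, so they are not strict lower limits. Gm49134 overlaps the listed gene Gch1 on the other strand, which was higher too, so their fragments may not be told apart. Gm14201, the other copy of Rpl34, was lower, and Gm8623 (Rps16) had 89.7% of its counts in 1 Hif1α LSL/LSL library. The groups of Gm8623 were apart by the size factors alone. Its highest Hif1α LSL/LSL;VilERcre value was 0.935 and its lowest Hif1α LSL/LSL value 0.941, each from 1 raw count.

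Copies of genes for RNA-binding and chromatin proteins numbered 3. Gm11847 and Gm12960 are both copies of Hnrnpa3, which encodes an RNA-binding protein. Gm11847 had 206, 173 and 255 normalized counts in Hif1α LSL/LSL;VilERcre mice, against 127, 107 and 130 in Hif1α LSL/LSL mice. Gm12960 had 414, 441 and 444 in Hif1α LSL/LSL;VilERcre mice, against 354, 318 and 326 in Hif1α LSL/LSL mice. Both were higher without overlap, by 0.80 ± 0.25 and 0.38 ± 0.16 on the log2 scale (SE). Gm5527, a copy of the chromatin protein gene Hmgb1, was lower, with 97.3, 131 and 131 in Hif1α LSL/LSL;VilERcre mice, against 221, 180 and 144 in Hif1α LSL/LSL mice.

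By FPKM, Gm9800 was the highest member in Hif1α LSL/LSL;VilERcre mice. It is a copy of the prothymosin gene Ptma with 1 mismatch in 334 aligned bases and had a mean of 124 FPKM in Hif1α LSL/LSL;VilERcre mice and 79.9 FPKM in Hif1α LSL/LSL mice. It had 836, 1003 and 931 normalized counts in Hif1α LSL/LSL;VilERcre mice, against 557, 582 and 633 in Hif1α LSL/LSL mice. The gap between the groups was wider than the spread within either, and the log2 fold change was 0.64 ± 0.14 (SE; adjusted p = 0.42 by edgeR and 0.025 by DESeq2). Tpt1-ps3, identical to the coding sequence of the growth-related gene Tpt1, had the highest mean FPKM over all 6 mice, 134. It had 1439, 1338 and 1380 normalized counts in Hif1α LSL/LSL;VilERcre mice, against 1672, 1730 and 1652 in Hif1α LSL/LSL mice. It was lower by a small step, with a log2 fold change of -0.28 ± 0.12 (SE). Over all members the mean FPKM had a median of 1.70 and ran between 0.032 and 134, and 38 members were above 1 FPKM.

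Among members with other parents, Vmn2r-ps126, from the vomeronasal receptor family, was the lower member with the clearest separation. It had 27.1, 37.3 and 62.9 normalized counts in Hif1α LSL/LSL;VilERcre mice, against 121, 141 and 126 in Hif1α LSL/LSL mice. The log2 fold change was -1.61 ± 0.38 (SE; adjusted p = 0.53 by edgeR and 0.017 by DESeq2). AC166360.2, a copy of the tubulin ligase-like gene Ttll2, had 10.3, 18.1 and 4.66 in Hif1α LSL/LSL;VilERcre mice, against 0, 2.64 and 0.941 in Hif1α LSL/LSL mice. Ttll2, itself low, had a higher mean too, 20.1 ± 16.3 in Hif1α LSL/LSL;VilERcre mice and 4.95 ± 1.19 in Hif1α LSL/LSL mice (SD, n = 3 each). Apol10c-ps, of the apolipoprotein L family, had 45.8, 96.9 and 68.8 in Hif1α LSL/LSL;VilERcre mice, against 52.3, 31.6 and 18.8 in Hif1α LSL/LSL mice. Its groups overlapped, and those of its parent Apol10a, with a log2 fold change of 0.56 ± 0.20 (SE), did not. Of the 26 members in this class, 16 were higher and 10 lower.

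Other members with large fitted changes were mostly low. Gm49377 had 17.8, 4.26 and 16.3 normalized counts in Hif1α LSL/LSL;VilERcre mice, against 0.986, 0.879 and 1.88 in Hif1α LSL/LSL mice. Gm12424 had 2.81, 11.7 and 14.0 in Hif1α LSL/LSL;VilERcre mice, against 0, 0 and 1.88 in Hif1α LSL/LSL mice. Both were higher without overlap but rested on few counts. Gm17330 had 10.3, 13.8 and 12.8 in Hif1α LSL/LSL;VilERcre mice and 0 in all Hif1α LSL/LSL mice, which puts it at least 13.2-fold higher. Its 3 positive libraries were even. Among the lower ones, Gm14567 had 8.42, 3.19 and 5.83 in Hif1α LSL/LSL;VilERcre mice, against 17.7, 19.3 and 26.3 in Hif1α LSL/LSL mice. Its 174 bases are identical to the RNA polymerase subunit gene Polr2k. Gm18194 had 12.2, 44.7 and 24.5 in Hif1α LSL/LSL;VilERcre mice, against 65.1, 119 and 52.7 in Hif1α LSL/LSL mice. Gm7153 and Gm6473 were lower as well, without overlap, Gm7153 with 0, 6.39 and 20.98 in Hif1α LSL/LSL;VilERcre mice, against 36.5, 35.1 and 24.5 in Hif1α LSL/LSL mice. Gm6473 had 0.935, 0 and 0 in Hif1α LSL/LSL;VilERcre mice, against 5.92, 2.64 and 22.6 in Hif1α LSL/LSL mice, and the third Hif1α LSL/LSL mouse held 70.6% of its counts. The same mouse held 93.9% of the counts of Tnxa, a partial copy of the tenascin gene Tnxb, which was at 0 in all Hif1α LSL/LSL;VilERcre mice and had 0.986, 0.879 and 29.2 in Hif1α LSL/LSL mice. Its fold therefore rests on 1 library.

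Chromosome 6 held 13 of the 72 members (18.1%), where 5.50% of annotated pseudogenes and 8.56% of all listed genes lie, and 9 of them were higher. A stretch of 3.81 Mb, chr6:128652416-132462973, chosen after its values were seen, held 6 members. All were higher with groups apart in normalized counts, beside 38.6% of all listed genes. The stretch spans genes of the natural killer receptor and C-type lectin family at its start and of proline-rich salivary proteins at its end. Clec2j, a decayed C-type lectin gene, had 35.5, 58.5 and 52.5 normalized counts in Hif1α LSL/LSL;VilERcre mice, against 1.97, 4.39 and 12.2 in Hif1α LSL/LSL mice. BC064078 had 123, 214 and 142 in Hif1α LSL/LSL;VilERcre mice, against 53.2, 14.9 and 40.5 in Hif1α LSL/LSL mice. The gap was wide for both, with log2 fold changes of 2.95 ± 0.69 and 2.14 ± 0.46 (SE), adjusted p = 0.53 and 0.42 by edgeR, and 0.016 and 0.0028 by DESeq2. Gm45063, the decayed Cdk4 copy printed above, had 25.3, 8.51 and 25.6 in Hif1α LSL/LSL;VilERcre mice and 0 in all Hif1α LSL/LSL mice, so that it was at least 21.2-fold higher. Gm5154, a relative of the proline-rich protein gene Prb1, lies 20.8 kb from it and had 19.6, 3.19 and 9.33 in Hif1α LSL/LSL;VilERcre mice and 0 in all Hif1α LSL/LSL mice, at least 11.5-fold higher. Gm44223 and Gm44216 were low, with 14.0, 24.5 and 1.17 and with 6.55, 33.0 and 4.66 in Hif1α LSL/LSL;VilERcre mice, against 0.986, 0 and 0 and against 0.986, 0 and 3.76 in Hif1α LSL/LSL mice. The lowest Hif1α LSL/LSL;VilERcre mouse and the highest Hif1α LSL/LSL mouse had equal raw counts, 1 each for Gm44223 and 4 each for Gm44216. For these members the groups were apart by the size factors alone. Gm44216 lies within Clec2j on the other strand, so their fragments may not be told apart.

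None of these 6 held a shared 150-base window where one could be tested. The edges of the stretch were set by the members Clec2j and Gm45063 after their values were seen, so a dense listing inside it was fixed by that choice. The shared direction and separation of its members cannot be read apart from that choice either. Of the 155 genes annotated in it 69 are pseudogenes, and the table listed 9 genes there in all. Of the 3 that were not pseudogenes, the receptor gene Klrb1 had 163, 70.2 and 103 normalized counts in Hif1α LSL/LSL;VilERcre mice, against 16.8, 33.4 and 39.5 in Hif1α LSL/LSL mice. Gm44215 had 180, 146 and 168 in Hif1α LSL/LSL;VilERcre mice, against 2.96, 67.6 and 50.8 in Hif1α LSL/LSL mice. Both were higher without overlap, while the abundant lectin gene Clec2h had a lower mean, 30106 ± 2152 in Hif1α LSL/LSL;VilERcre mice and 39631 ± 6929 in Hif1α LSL/LSL mice (SD, n = 3 each), and its groups overlapped.

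**Figure D4:**
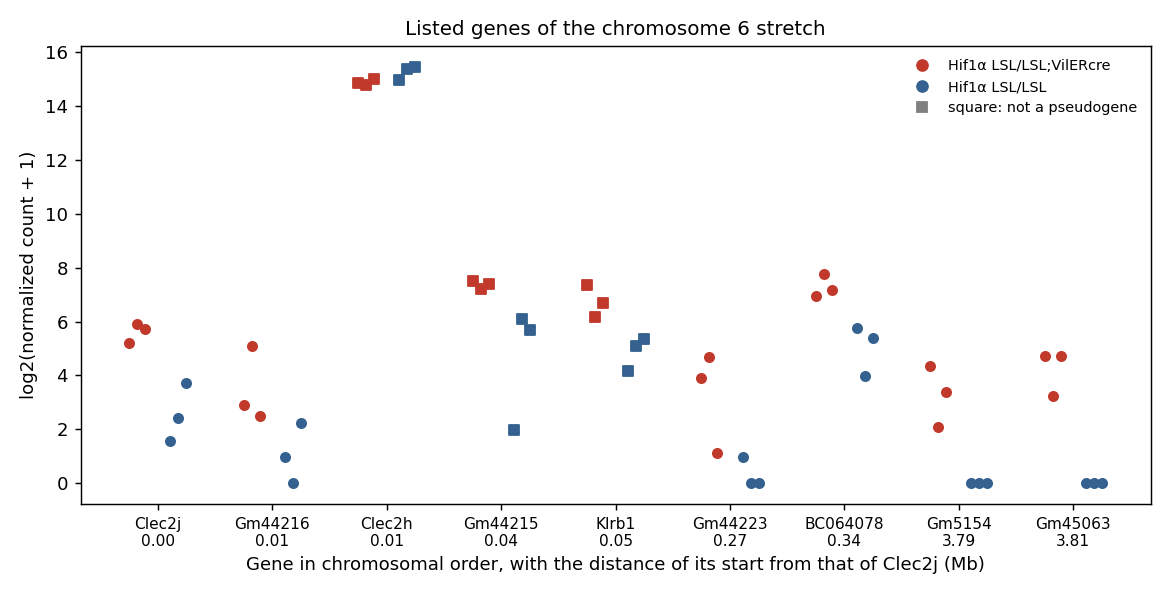
Listed genes of the chromosome 6 stretch in chromosomal order, with log2(normalized count + 1) per mouse on the vertical axis. Hif1α LSL/LSL;VilERcre mice are drawn left of Hif1α LSL/LSL mice, circles are pseudogenes and squares other genes. Every pseudogene lies higher in all Hif1α LSL/LSL;VilERcre mice, for Gm44223 and Gm44216 by the size factors alone. Gm5154 and Gm45063 are at 0 in the 3 Hif1α LSL/LSL mice.

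Counts near 0 were frequent. In 13 members all Hif1α LSL/LSL libraries were at 0, and in 8 all Hif1α LSL/LSL;VilERcre libraries were, against 65 listed genes of 923 in each case. The bounds on the fold of these 21 members ran from 4.81 to 21.2. Of the 22 members below the minimum, 17 were among them. In 23 members a single library held at least 50% of all counts, and in Gm43960 and Gm13771 (Cox7b) it held all of them. By level, 52.8% of the members had a mean under 20 normalized counts, against 27.6% of the other listed genes, and 9.72% had at least 200, against 48.4%.

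The spread between mice followed the level. The SD of log2(normalized count + 1) over the 3 mice of a group had a median of 0.52 in Hif1α LSL/LSL;VilERcre mice and 0.33 in Hif1α LSL/LSL mice over all members, and over the other listed genes 0.27 in Hif1α LSL/LSL;VilERcre mice and 0.29 in Hif1α LSL/LSL mice. Under 20 normalized counts the medians of the members were 0.69 in Hif1α LSL/LSL;VilERcre mice and 0.61 in Hif1α LSL/LSL mice, beside 0.70 and 0.72 of the other genes in these groups. Between 20 and 200 they were 0.39 in Hif1α LSL/LSL;VilERcre mice and 0.31 in Hif1α LSL/LSL mice, beside 0.41 in each group for the other genes, and from 200 upwards 0.13 in Hif1α LSL/LSL;VilERcre mice and 0.094 in Hif1α LSL/LSL mice, beside 0.17 and 0.21. On this scale the median SD of the members was below that of the other listed genes in each class of level. With a pseudocount of 5 the order turned for members under 20 in Hif1α LSL/LSL;VilERcre mice, at 0.49 beside 0.41. On log2(FPKM + 0.1) it turned there as well, at 0.69 beside 0.41, at 20 to 200 in Hif1α LSL/LSL;VilERcre mice, at 0.37 beside 0.35, and under 20 in Hif1α LSL/LSL mice the members were at 0.42 beside 0.42.

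Members that shared a window of 150 bases with other transcripts were the more abundant ones, with a median mean of 56.8 normalized counts, against 5.01 in the remaining 34. The remaining 34 include Gm44223, which at 114 bases was too short to test. Of the sharing members 21 were higher and 17 lower, with a median log2 fold change of 0.60 over the 33 in the fit. Of the remaining 34, 23 were higher and 11 lower, with a median of 2.14 over the 17 in the fit. These medians describe 2 sets of different level and were not tested against each other.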

How the data were processed

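Poly(A) RNA of ileum from 6 mice was sequenced as 150-base pairs, and the authors used HISAT2 (version 2.0.5) for alignment against GRCm38 and featureCounts for counting fragments of each gene. The deposited table holds raw counts, the authors' normalized signal (counts divided by a size factor per library, here normalized counts) and FPKM. Its columns of fold change, p-value and adjusted p hold DESeq2 results of the authors, which were neither used nor compared, except that the deposited p-value columns gave the number of genes adjusted over, 19204. Whether counting used strand is not stated in the sources used.

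The main test was edgeR (version 4.0.16, R 4.3.3), quasi-likelihood, two-sided, on the counts of the 767 listed genes whose mean reached 5 normalized counts, with the deposited size factors (0.858 to 1.14), 3 libraries against 3, no covariates, threshold 0.05. Alternatives were TMM, totals implied by FPKM, other filters, DESeq2 (version 1.42.0), limma (version 3.58.1, pseudocount 1), a replicate block, sex, males only, adjustment over the fitted genes alone, and each library left out. The fit was tested on simulated data.

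Members, parent families and cell type markers were chosen with earlier results of these data known. Named were the 8 largest fitted rises and falls, the 5 highest by FPKM, members with a listed parent and members of the fixed parent families; BC064078, Clec2j and the chromosome 6 genes were added after their values were seen. Parents came from symbols or blastn (version 2.17.0) against GENCODE M21 protein-coding transcripts; the same strand and at least 30% of the member were required after the matches had been seen. Shared windows were sought in transcripts only, not in the whole genome. Bounds and intervals cover counting error only. One cell type marker is not reported here.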

Additional observations from a re-analysis of the deposited data

Results flagged for a closer look

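By the labelled sex, the group differences in normalized counts had opposite signs in males and females in a pair of members. In both members the female values were nearly equal. Cyp21a2-ps, a copy of the steroid hydroxylase gene Cyp21a1, had 0 and 0 normalized counts in male Hif1α LSL/LSL;VilERcre mice, against 19.7 and 7.91 in male Hif1α LSL/LSL mice. The female Hif1α LSL/LSL;VilERcre mouse had 1.17 and the female Hif1α LSL/LSL mouse 0.941, a difference of 0.225. Both females had 1 raw count, so this difference comes from the size factors alone, and the difference between the sexes was not tested for this gene, which was below the minimum of the fit. Trmt112-ps2 had 36.5 and 41.5 in male Hif1α LSL/LSL;VilERcre mice, against 90.7 and 112 in male Hif1α LSL/LSL mice. The female values were 35.0 in the Hif1α LSL/LSL;VilERcre mouse and 34.8 in the Hif1α LSL/LSL mouse, a difference of 0.153. The raw counts of these females were 30 and 37, so the sign of their difference depends on the size factors. The difference between the sexes in the log2 fold change of Trmt112-ps2 was 1.38 ± 0.83 (SE, edgeR). With 1 female in each group the female values have no replicate check. In an edgeR fit with a term for the difference between the sexes, that term had a median of -0.11 over the 50 members. Over the 767 listed genes in the fit its median was -0.064. Without replicate females this fit cannot decide whether members differ by sex.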

How the results depend on the processing

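None of the 37 members in the fit that were named by the fixed rule changed direction under any alternative that could be fitted. BC064078, Clec2j, Bambi-ps1 and Trmt112-ps2, named for other reasons, are not among these 37. Named members below the minimum entered only the count with no filter. The count of calls was 0 of 72 members with no filter, beside 22 of 923 listed genes. At a minimum of 20 normalized counts the count of calls was 0 of 34, beside 20 of 650. It was 0 of 50 under TMM, FPKM-implied totals, limma, males only, sex as a covariate, the replicate block and each library left out. Few of the 767 listed genes were called there either. These were 15 under TMM, 21 under FPKM-implied totals, 21 under limma, 1 in males only, 19 with sex and 39 with the replicate block. With a library left out 4 to 13 were called. With DESeq2 the count of members called was 5 of 50, beside 9.52% of the listed genes. Adjustment over the genes of the fit alone gave 24 of 50, beside 316 of 767 listed genes (41.2%). That adjustment takes no account of how the table was selected. The number of higher and lower members was 33 and 17 without each library in turn, and 44 and 28 with no filter on low counts, where all 72 members enter. The median log2 fold change of the members was 0.70 under TMM, which also moved the median of all genes in the fit to 0.20, and 0.75 at a minimum of 20 normalized counts. It ran from 0.78 to 0.99 with one library left out, and stood at 0.97 without the second Hif1α LSL/LSL mouse and at 0.99 without the third Hif1α LSL/LSL;VilERcre mouse. Same-numbered mice deviated together only weakly (correlations 0.065, 0.044 and 0.091), so the numbers were not taken as pairs; with the replicate block 0 members were called, 39 listed genes against 22 without it, and the median was 0.85. Each mouse correlated best with its own number in the other group, a hint from the data and not the design. Windows of 50 bases raised the members with shared sequence to 60. A match on either strand and over any share of the member, an alternative added after seeing the data, gave 63 members with a parent. Without the third Hif1α LSL/LSL mouse the fitted log2 fold change of Tnxa was -3.08 in place of -6.41.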

Other observations

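Cyp21a2-ps and Tnxa lie 49.1 kb apart on chromosome 17 in the duplicated region of the steroid hydroxylase and tenascin genes, and both had lower means in Hif1α LSL/LSL;VilERcre mice. They did not come from the same mice: the first Hif1α LSL/LSL mouse held 64.5% of the counts of Cyp21a2-ps and the third held 93.9% of those of Tnxa. On chromosome 17 as a whole, 5 of 6 members were lower, and on chromosome X 4 of 6 were.

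Overlap of members with other genes was common. Another annotated gene overlapped 30 of the 72, and in 3 of these the overlapping gene was itself listed. A listed gene lay within 100 kb of 15 members. Bambi-ps1, a copy of the TGF-β pseudoreceptor gene Bambi, is 5.80 kb from the nucleoside transporter gene Slc28a2, and both were higher. It had 137, 162 and 76.9 normalized counts in Hif1α LSL/LSL;VilERcre mice, against 51.3, 56.2 and 32.0 in Hif1α LSL/LSL mice, with a log2 fold change of 1.43 ± 0.39 (SE; adjusted p = 0.83, edgeR). Bambi-ps1 matches Bambi at 88.6% identity and shared no 150-base window with another transcript. It was named after its values were seen.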
